A study of Rattus norvegicus with 4 samples.

Results

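The 7 fibrillar collagen genes Col1a1, Col1a2, Col3a1, Col5a1, Col5a2, Col5a3 and Col11a1 were taken by gene symbol from a table of 34034 genes. All 7 were present, and all had more than the 40 counts over the 4 libraries that were required for a comparison, as did 12228 genes in all. The cells were mesenchymal stem cells from rat femurs, kept in osteogenic induction medium and sampled at day 1 after 24 h of treatment. Young cells that received vehicle are called the young control and senescent cells that received vehicle the senescent control. Another culture of senescent cells received TSA, trichostatin A, which inhibits histone deacetylases. The last received both TSA and phenamil, an amiloride derivative. Each condition was 1 library of 1 batch, with no biological replicate, so every ratio below compares 2 libraries and no p-value can be given. No library held phenamil alone, and neither the doses nor the way the cells became senescent are given in the sources used here. The labels name phenamil as the second compound while the design text names benzyl ether, and the labels were followed. The libraries were made with a kit that reads the 3' ends of polyadenylated transcripts, so that a count stands for a transcript end rather than for a length of transcript.

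Fibrillar collagens are secreted proteins whose chains wind into a long triple helix and then line up into the fibrils that give bone, skin and tendon their tensile strength. Type I collagen, built from 2 chains of Col1a1 and 1 of Col1a2, is the main protein of bone matrix and a product of mesenchymal stromal cells and osteoblasts. Type III collagen is a homotrimer of Col3a1 that shares fibrils with type I in soft tissue. Types V (Col5a1, Col5a2, Col5a3) and XI (Col11a1) are minor chains that start fibrils and limit their width, and type XI is best known from cartilage.

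Total counts ran from 9873894 to 11024227 per library. Levels are given as CPM, the usual depth-scaled count, where library sizes carry edgeR's TMM adjustment for composition. Intervals are exact 95% intervals and cover counting error only, as each condition was 1 library. PCR copies of a molecule were not marked, so that copies may be counted as separate reads. A gene is called higher or lower where the interval of its ratio excludes no change, and because collagen counts are large, small ratios pass this rule. Each count of members called by this rule is therefore set beside the share called among all 12228 genes and among the 634 abundant genes. The abundant genes are those whose counts sum to 10000 or more, a group that holds all 7 members. Counts by the 1.2-fold and 1.5-fold rules are set beside the share of the abundant genes only. Counts under other scalings, filters or settings are given without a share. In this bulk RNA fewer cells that make collagen and less collagen RNA per cell cannot be told apart. All 10 markers of mesenchymal stromal cells had at least 40 counts, and their summed level of 2439 to 2781 CPM, most of it Itgb1, was lowest with TSA. Of these markers only Itgb1 and Pdgfrb were lowest with TSA, and Nt5e was highest there at 16.4 CPM. Of 7 osteoblast markers 2 had 40 counts, Runx2 and Alpl, and the list summed to 44.5 CPM in young and 39.1 CPM in senescent control cells, 33.6 CPM with TSA and 45.2 CPM with TSA + phenamil. This is the order of the summed collagen level over the libraries, but neither Runx2 nor Alpl had it alone. Runx2 was highest in the young control at 26.8 CPM. Alpl was lower in young than in senescent control cells, at 17.5 and 19.2 CPM. Sp7 and Ibsp, which mark later osteoblasts, were at 0 in each library, which allows up to 0.270 to 0.302 CPM. Of 5 endothelial markers none had 40 counts, with summed levels of 0 to 0.403 CPM. Of 9 haematopoietic markers 1 had 40 counts, with a sum of 5.23 to 10.7 CPM. Of 8 chondrocyte markers 6 did, Col9a1, Acan and Col2a1 among them and Matn1 at 0, with a sum of 1748 to 1863 CPM that was lowest with TSA. Of these 6, only Col2a1 and Col9a2 were lowest with TSA. Col9a1, Sox9 and Comp were lowest in the young control, and Acan with TSA + phenamil. The part of these markers in the collagen differences was not tested.

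RefSeq promoter entries of the build GRCr8 were matched for 5 of the 7 genes: Col1a2, Col5a1, Col5a2, Col5a3 and Col11a1. The promoters with the letters CCAAT, the core of the site bound by the factor NF-Y, are shown because these letters are a known element of collagen promoters. The search covered the 250 bases before each annotated gene start on both strands, so that ATTGG is the same element on the other strand. Sequences run 5' to 3' on the gene's own strand, and capitals mark this element in either orientation and the TATA letters.

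Col5a3 (chr8:27625949-27626198, minus strand): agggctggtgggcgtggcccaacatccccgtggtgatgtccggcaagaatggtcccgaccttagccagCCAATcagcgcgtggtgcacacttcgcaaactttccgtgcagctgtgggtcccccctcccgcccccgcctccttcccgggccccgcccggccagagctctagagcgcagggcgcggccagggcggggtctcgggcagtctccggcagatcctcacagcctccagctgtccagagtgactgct

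Col1a2 (chr4:33518307-33518416, plus strand): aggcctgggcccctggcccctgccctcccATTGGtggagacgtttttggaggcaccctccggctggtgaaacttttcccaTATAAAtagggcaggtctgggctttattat

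Col11a1 (chr2:204508886-204509135, plus strand): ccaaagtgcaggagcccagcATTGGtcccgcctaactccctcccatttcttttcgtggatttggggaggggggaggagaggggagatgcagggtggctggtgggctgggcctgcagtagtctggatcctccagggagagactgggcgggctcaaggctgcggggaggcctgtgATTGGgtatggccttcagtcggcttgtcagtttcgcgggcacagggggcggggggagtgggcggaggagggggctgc

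CCAAT in either orientation was found in 3 of the 5 member promoters and in 34.0% of all 33469 promoters of the table. The letters began 182 bases before the start of Col5a3, 221 bases before that of Col1a2, and 230 and 77 bases before that of Col11a1. TATAAA in either orientation was found in 1 of the 5, in Col1a2 at 170 bases before the annotated start, and in 12.9% of all promoters; for Col1a2 only the upstream 110 bases of the window are printed. A TATA element usually lies much closer to the start, so the annotated Col1a2 start may lie downstream of the one used, and both distances for Col1a2 depend on it. GGGCGG, the letters of a GC box, were found in either orientation in 3 of the 5 (Col5a1, Col5a3 and Col11a1) and in 30.5% of all. CAGAC, part of a SMAD-binding element, was found in either orientation in 3 of the 5 (Col1a2, Col5a2 and Col11a1) and in 42.9% of all. These matches are descriptions of letters.

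The 7 genes together took 5.74% of all counts in the young control (95% interval 5.72 to 5.75), 5.23% in the senescent control (5.22 to 5.25), 4.74% with TSA (4.72 to 4.75) and 5.74% with TSA + phenamil (5.73 to 5.76). They made up 86.4% to 87.8% of the counts of the 25 collagen genes with enough counts. On the TMM scale their summed level was 56389 CPM in the young control, 52384 CPM in the senescent control, 47134 CPM with TSA and 58625 CPM with TSA + phenamil. The family was lowest in the TSA library on both scales, with the young control above the senescent control. TSA + phenamil was the highest on the TMM scale, while as a share of counts its interval overlapped that of the young control. The summed level of the senescent control was 0.929 (0.926 to 0.932) times that of the young control, and the TSA library stood at 0.900 (0.896 to 0.903) times the senescent control. The TSA + phenamil library stood at 1.12 (1.12 to 1.12) times the senescent control, 1.24 (1.24 to 1.25) times the TSA library and 1.04 (1.04 to 1.04) times the young control.

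Col1a1, the alpha 1 chain of type I collagen, was the second most abundant gene in every library. Its level was 30460 CPM in the young control, 29865 CPM in the senescent control, 26684 CPM with TSA and 33576 CPM with TSA + phenamil. The 2 controls were close to each other, the TSA library was below both and the TSA + phenamil library above both. Its ratio was 0.980 (0.976 to 0.985) for senescent against young control, 0.894 (0.889 to 0.898) for TSA against senescent control, 1.12 (1.12 to 1.13) for TSA + phenamil against senescent control and 1.26 (1.25 to 1.26) for TSA + phenamil against TSA. The highest level was 1.26 times the lowest, and 30.1% of the 634 abundant genes had a span at least as wide, so its range over the libraries was that of many abundant genes.

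Col1a2, the alpha 2 chain of the same trimer, ranked 3 in abundance in the senescent control and 4 in the other libraries. It stood at 14292 CPM in the young control, 12490 CPM in the senescent control, 11478 CPM with TSA and 13751 CPM with TSA + phenamil. Unlike for Col1a1, the young control was the highest library. The ratio of senescent to young control was 0.874 (0.868 to 0.880), that of TSA to senescent control 0.919 (0.912 to 0.926), that of TSA + phenamil to senescent control 1.101 (1.09 to 1.11) and that of TSA + phenamil to TSA 1.198 (1.19 to 1.21).

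Col3a1, the only chain of type III collagen, varied more. It stood at 4922 CPM in the young control, 3942 CPM in the senescent control, 3333 CPM with TSA and 5326 CPM with TSA + phenamil. The TSA + phenamil and young libraries were high and the senescent control and TSA libraries low. The ratio was 0.801 (0.791 to 0.811) for senescent against young control and 0.846 (0.833 to 0.858) for TSA against senescent control. Against the senescent control the library with both compounds was at 1.35 (1.33 to 1.37), and against TSA alone at 1.598 (1.58 to 1.62). Of the 634 abundant genes, 2.84% spanned as wide a range over the 4 libraries, where the median span was 0.25 on the log2 scale and that of Col3a1 was 0.68.

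Col5a1, the alpha 1 chain present in most type V collagen, hardly differed between libraries. Its levels were 1957 CPM in the young control, 1857 CPM in the senescent control, 1829 CPM with TSA and 1888 CPM with TSA + phenamil. The senescent control did not differ beyond counting error from TSA, at 0.985 (0.965 to 1.005), or from TSA + phenamil, at 1.02 (0.997 to 1.04). It was lower than the young control at 0.949 (0.931 to 0.968). Of the abundant genes, 93.1% had a span at least as wide as its 0.10 on the log2 scale.

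Col5a2, the alpha 2 chain of type V collagen, stood at 1585 CPM in the young control, 1635 CPM in the senescent control, 1483 CPM with TSA and 1630 CPM with TSA + phenamil. The TSA library was lowest, and the young control was a little below the other 2. The ratio of senescent to young control was 1.03 (1.01 to 1.05), and this was the one member called higher there. Scaled by total counts, that ratio was 1.013 (0.993 to 1.03) and the call was lost. The TSA library was at 0.907 (0.888 to 0.927) times the senescent control, and TSA + phenamil did not differ from it beyond counting error at 0.997 (0.976 to 1.02), but was lower at 0.977 (0.957 to 0.998) when scaled by total counts. TSA + phenamil stood at 1.099 (1.08 to 1.12) times TSA alone.

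Col5a3, the alpha 3 chain that replaces another chain in a part of type V collagen, was the least abundant member and varied most. It had 3848 counts in young and 2258 in senescent control cells, 1425 with TSA and 3320 with TSA + phenamil, which is 347, 205, 144 and 316 CPM. The young and TSA + phenamil libraries were high, the senescent control was lower and the TSA library lowest. The ratio was 0.591 (0.561 to 0.623) for senescent against young control and 0.701 (0.655 to 0.749) for TSA against senescent control. It was 1.54 (1.46 to 1.63) for TSA + phenamil against senescent control and 2.201 (2.07 to 2.34) for TSA + phenamil against TSA. Against the young control the TSA library stood at 0.414 (0.389 to 0.440) and the TSA + phenamil library at 0.911 (0.870 to 0.955). With 10851 counts in all, Col5a3 just passed the minimum of 10000 for the abundant genes. That minimum was set after the files were seen, and the largest counts of Col5a3 were in the young and TSA + phenamil libraries. Genes below it were left out, such as Col12a1, at 2.31 (2.02 to 2.65) in TSA + phenamil against TSA. The place of Col5a3 among the 634 thus depends on the minimum. In TSA + phenamil against TSA, Col5a3 was the 1 gene of those 634 (0.158%) whose whole interval lay above 2-fold. In TSA against young control it was the 1 gene (0.158%) whose whole interval lay beyond 2-fold lower. Its log2 span of 1.27 was the widest of the 634.

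Col11a1, the alpha 1 chain of type XI collagen, had an order of its own. It stood at 2827 CPM in the young control, 2390 CPM in the senescent control, 2183 CPM with TSA and 2138 CPM with TSA + phenamil. The young control was highest, and the library with both compounds was the lowest, where for the other 6 members TSA alone was lowest. The ratio was 0.845 (0.832 to 0.859) for senescent against young control, 0.913 (0.897 to 0.930) for TSA against senescent control and 0.895 (0.879 to 0.911) for TSA + phenamil against senescent control. Between TSA + phenamil and TSA it was 0.980 (0.962 to 0.998). Against the young control, the TSA + phenamil library was at 0.756 (0.744 to 0.770), and 0.473% of the 634 abundant genes were as low in that comparison.

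**Figure D1:**
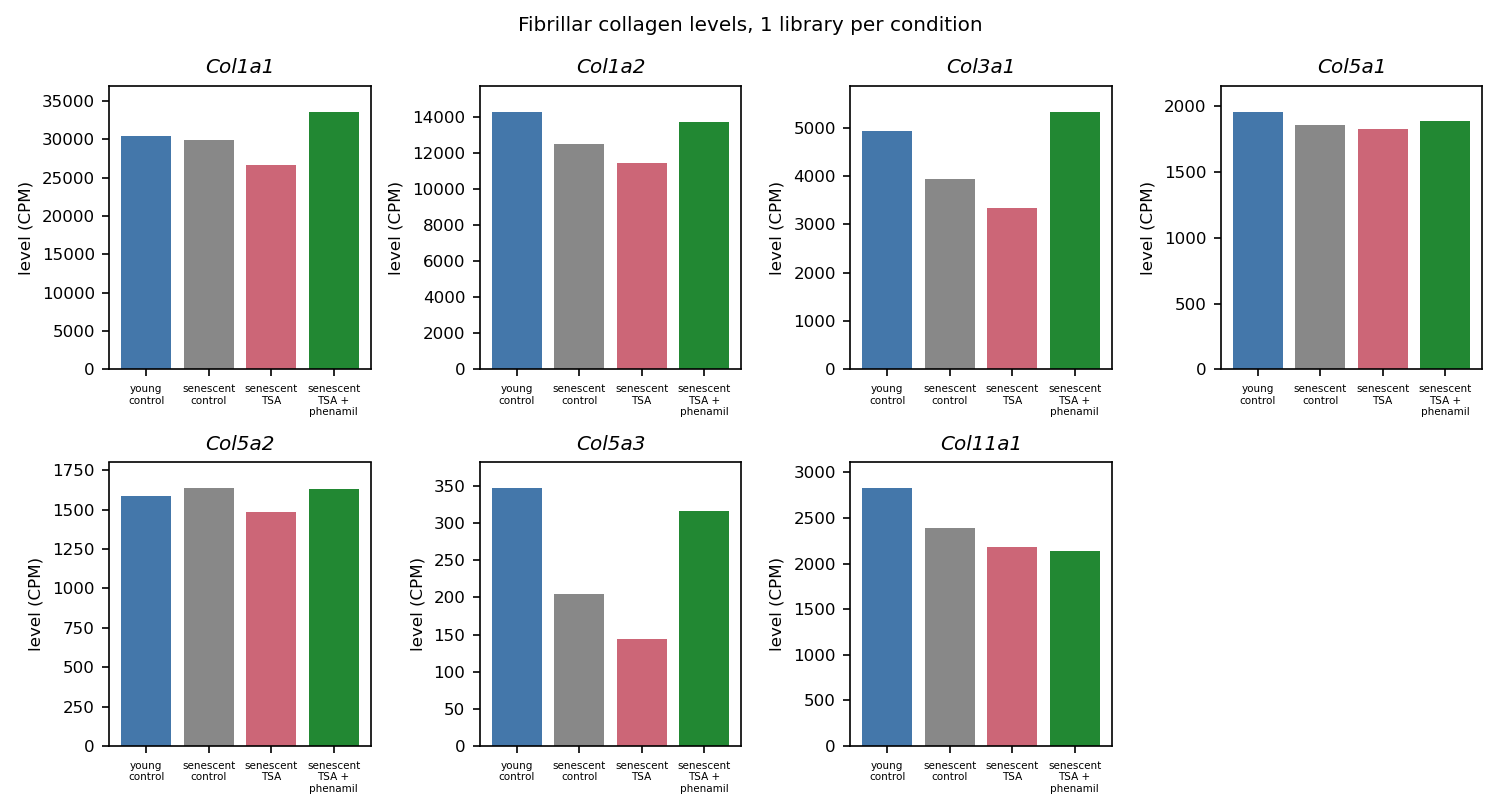
Level in CPM (vertical axes, each starting at 0 with its own scale) of the 7 genes in the 4 libraries, 1 bar per library and no replicates. The TSA library is lowest in 6 of 7 panels, Col11a1 being the exception, and Col5a3 has the widest relative range, from 144 to 347 CPM.

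The TSA library was the lowest of the 4 for 6 of 7 members, and for 27.0% of the 634 abundant genes. The young control was the highest for 4 members and for 20.8% of the abundant genes. The order young control, TSA + phenamil, senescent control, TSA, from high to low, was that of Col1a2, Col5a1 and Col5a3 and of 7.10% of the abundant genes. Col1a1 and Col3a1 had the same order except that TSA + phenamil stood above the young control, which was seen in 5.05% of abundant genes. For Col5a1 neither TSA nor TSA + phenamil differed from the senescent control beyond counting error, so its order is not settled. Col3a1 and Col5a2 are neighbouring protein-coding genes in the RefSeq gene order of GRCr8, and their log2 spans were 0.68 and 0.14.

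Senescent cells were compared with young cells without treatment. Of the 7 members, 6 were lower in the senescent control and Col5a2 was higher. The share called lower was 16.7% of all genes and 25.1% of the abundant genes, and the share called higher 18.1% and 52.7%. With the whole interval beyond 1.2-fold, 2 members remained, Col3a1 and Col5a3, both lower, beside 1.89% of abundant genes lower by that rule. Beyond 1.5-fold it was Col5a3 alone, beside 0.315%. The median log2 ratio of the members was -0.19, against 0.00 for all genes compared and 0.07 for the abundant ones. Of the summed difference of -4005 CPM, Col1a2 gave 44.9979%, Col3a1 24.5%, Col1a1 14.9% and Col11a1 10.9%. The largest part of the difference in fibrillar collagen transcripts was thus in the alpha 2 chain of type I, not in Col1a1.

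The addition of TSA to senescent cells came with lower levels of 6 members, and Col5a1 was neither higher nor lower. Of all genes 14.7% were called lower, and of the abundant genes 32.0%. Beyond 1.2-fold only Col5a3 was lower, beside 4.1% of abundant genes. The median log2 ratio of the members was -0.14, against -0.00 for all genes and 0.01 for the abundant ones. Of the summed difference of -5250 CPM, Col1a1 gave 60.6% and Col1a2 19.3%.

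With TSA + phenamil in place of vehicle, 4 members were higher, Col11a1 was lower, and Col5a1 and Col5a2 were neither. The members called higher were Col1a1, Col1a2, Col3a1 and Col5a3, where 15.8% of all genes and 35.5% of the abundant genes were called higher, and 15.9% and 36.9% lower. Beyond 1.2-fold, Col3a1 and Col5a3 were higher, beside 4.42% of abundant genes. The median log2 ratio of the members was 0.14, against -0.00 for both all genes and the abundant ones. This comparison and the previous ones share the senescent control library, so its own error enters each of them.

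The pair TSA + phenamil against TSA differs by phenamil. All members but Col11a1 were higher with it, 6 of 7, with 16.6% of all genes and 33.9% of the abundant genes called higher. Col11a1 was called lower, as were 17.1% and 40.2%. Scaled by total counts, 5 members were higher, as Col5a1 stood at 1.006 (0.986 to 1.03), and with a filter of 200 counts Col11a1 was at 0.982 (0.963 to 1.0002) and not called. Beyond 1.2-fold, 3 members were higher, Col1a1, Col3a1 and Col5a3, beside 7.57% of abundant genes, and beyond 1.5-fold Col3a1 and Col5a3, beside 1.1%. The median log2 ratio of the members was 0.26, against 0.00 for all genes and -0.02 for the abundant ones. The spread of log2 ratios over the abundant genes was also wider here, with a standard deviation (SD) of 0.21 against 0.17 to 0.18 in the other 3 comparisons given so far.

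Against the young control, all 7 members were lower with TSA, where 20.4% of all genes and 31.4% of the abundant genes were called lower; Col1a2, Col3a1, Col5a3 and Col11a1 were lower beyond 1.2-fold, beside 9.15% of abundant genes, and Col5a3 beyond 1.5-fold, beside 1.89%. The SD over the abundant genes was 0.28 in this pair. With TSA + phenamil, 3 members were higher than in the young control (Col1a1, Col3a1 and Col5a2) and 4 lower (Col1a2, Col5a1, Col5a3 and Col11a1), beside 16.1% of all genes higher and 15.7% lower, and 45.3% and 26.7% of the abundant genes. Scaled by total counts 2 members were higher, and Col5a2 turned to 0.991 (0.970 to 1.01). Among these only Col11a1 was beyond 1.2-fold, beside 1.58% of abundant genes lower. Ratios of the other 6 to the young control lay between 0.911 for Col5a3 and 1.102 for Col1a1.

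**Figure D2:**
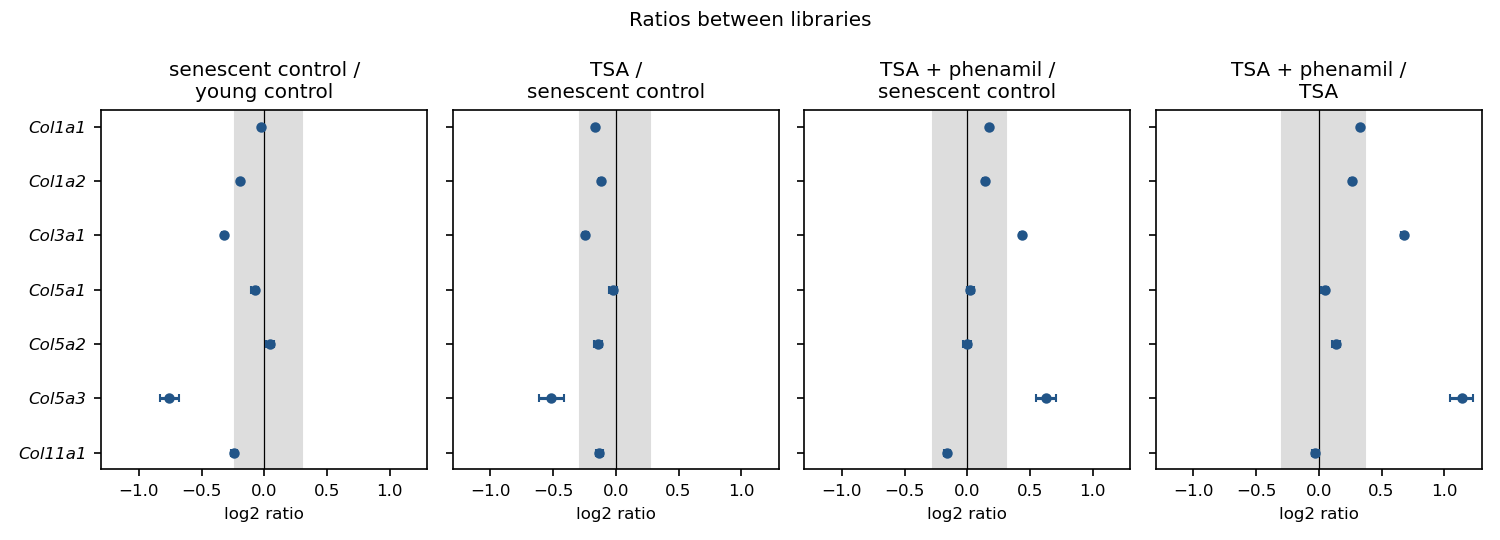
Log2 ratio between 2 libraries (horizontal axis) for the 7 genes in 4 comparisons, with 95% intervals of counting error; the grey band holds the central 90% of the 634 abundant genes. Col5a3 lies outside the band in all 4 panels, Col3a1 in 3 of them (not in TSA against senescent control), and Col11a1 just outside in senescent against young control.

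Chains of a trimer are made from separate genes, and the share of one chain among them does not depend on how libraries are scaled. Col1a1 made up 68.1% (67.9 to 68.2) of type I counts in the young control, 70.5% (70.4 to 70.6) in the senescent control, 69.9% (69.8 to 70.1) with TSA and 70.9% (70.8 to 71.1) with TSA + phenamil. The corresponding ratios of Col1a1 to Col1a2 were 2.13, 2.39, 2.32 and 2.44, beside the 2 to 1 of the protein trimer. The 3 senescent libraries lay above the young control, and no 2 intervals overlapped. Counts of different genes also depend on how well the reads of each 3' end map, so that the differences between libraries are firmer than the ratios themselves.

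Col5a1 made up 55.2% (54.8 to 55.7) of Col5a1 and Col5a2 counts in the young control, 53.2% (52.7 to 53.7) in the senescent control, 55.2% (54.7 to 55.8) with TSA and 53.7% (53.1 to 54.2) with TSA + phenamil. The young and TSA libraries overlapped each other and stood above the other 2, which overlapped each other. Col3a1 made up 13.9% (13.8 to 14.0), 11.7% (11.6 to 11.8), 11.1% (10.99 to 11.2) and 13.7% (13.6 to 13.8) of Col3a1 and Col1a1 counts, in the same order of libraries. The balance of type III to type I was thus higher in the young and TSA + phenamil libraries than in the other 2.

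A further 2 shares were chosen after the levels had been seen and are given as description. Col5a3 was 8.92% (8.65 to 9.19) of type V counts in the young control, 5.54% (5.32 to 5.77) in the senescent control, 4.16% (3.95 to 4.37) with TSA and 8.25% (7.98 to 8.52) with TSA + phenamil. The intervals of the 4 libraries did not overlap. Col11a1 was 59.1% (58.7 to 59.5) of Col11a1 and Col5a1 counts in the young control, 56.3% (55.8 to 56.7) in the senescent control, 54.4% (53.9 to 54.9) with TSA and 53.1% (52.6 to 53.6) with TSA + phenamil.

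**Figure D3:**
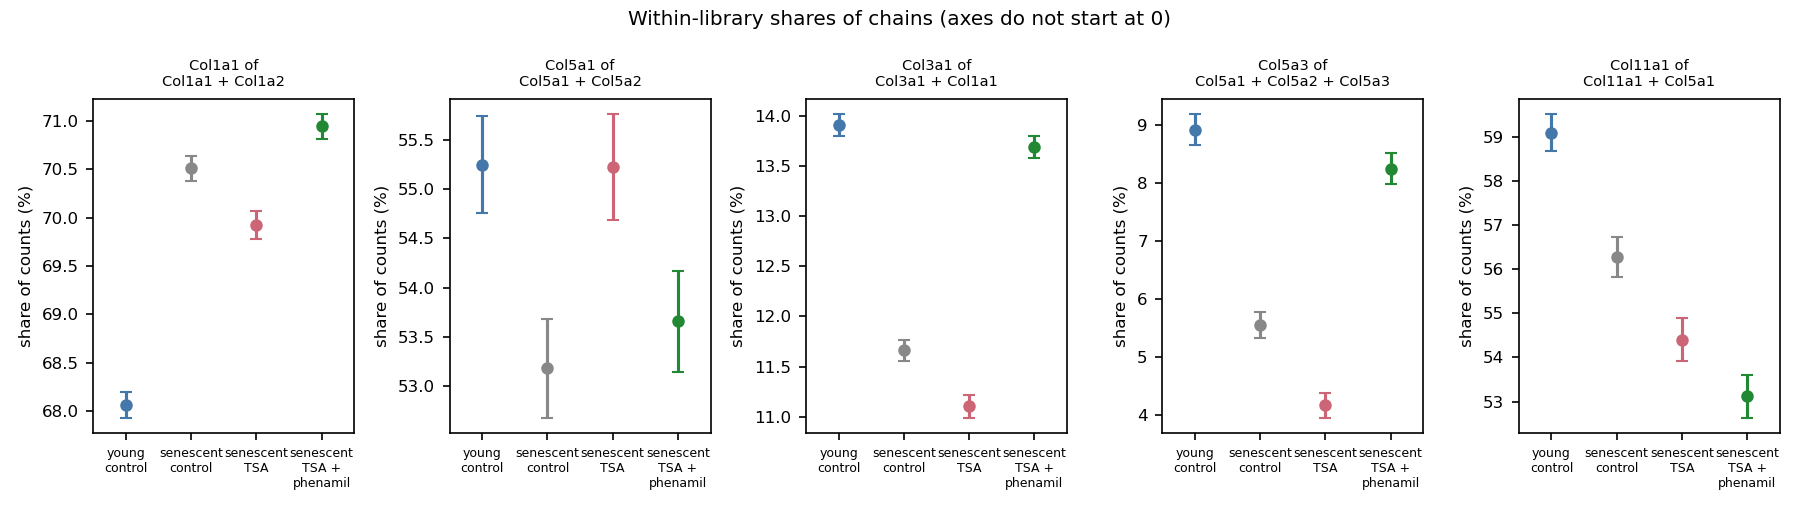
Share of counts in percent (vertical axes, not starting at 0) of one chain among the chains named above each panel, in each of the 4 libraries, with exact 95% binomial intervals. The type III to type I and the Col5a3 panels place the young and TSA + phenamil libraries above the other 2, while the Col11a1 share is highest in the young control at 59.1% and lowest with TSA + phenamil at 53.1%.

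Of the 4 other fibrillar collagen genes, Col27a1 and Col2a1 had enough counts. Col27a1 stood at 103.0 CPM in the young control, 71.8 CPM in the senescent control, 53.5 CPM with TSA and 90.3 CPM with TSA + phenamil. It was lower in senescent than in young control at 0.697 (0.636 to 0.764) and higher with TSA + phenamil than with TSA at 1.69 (1.51 to 1.88), so its order over the libraries was that of Col5a3. Col2a1, the collagen of cartilage, varied less, between 93.96 and 106.2 CPM. Col11a2 had 9, 2, 4 and 1 counts, and Col24a1 had 5 counts in the young control and 0 in the other 3, which allows up to 0.272 to 0.302 CPM. Of 16 collagen genes of other types, 11 were lower and 2 higher in senescent against young control, and 12 were higher and 1 lower with TSA + phenamil against TSA. Of all genes 16.7% were lower and 18.1% higher in the first pair, and 16.6% higher and 17.1% lower in the second. Of the abundant genes, which include Col6a1 and Col8a1, 25.1% were lower and 52.7% higher in the first pair. In the second, 33.9% of them were higher and 40.2% lower. With TSA against senescent control 8 of the 16 were lower and 3 higher, the latter being Col6a1, Col6a3 and Col8a2. In that pair 14.7% of all genes were lower and 15.7% higher. In TSA + phenamil against TSA, the fibril-associated Col12a1 was at 2.31 (2.02 to 2.65) and the basement membrane gene Col4a2 at 1.66 (1.53 to 1.81).

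The counts over lists that follow are read beside the shares of all genes higher and lower, which were 18.1% and 16.7% in senescent against young control and 15.7% and 14.7% in TSA against senescent control. They were 15.8% and 15.9% in TSA + phenamil against senescent control, and 16.6% and 17.1% in TSA + phenamil against TSA. Abundant genes were called more often than these shares, which are not matched to the counts of the listed genes. Genes that fold, hydroxylate and export procollagen were called in both directions. In senescent against young control 9 of 25 were higher and 5 lower, with a median log2 ratio of 0.05, and in TSA + phenamil against TSA 5 were higher and 9 lower, with a median of -0.08. The collagen chaperone gene Serpinh1 (HSP47) stood at 1754 CPM in the young control, 1567 CPM in the senescent control, 1374 CPM with TSA and 1726 CPM with TSA + phenamil. It was lower in senescent than in young control at 0.893 (0.875 to 0.912), lower again with TSA at 0.877 (0.857 to 0.897) and higher with TSA + phenamil than with TSA at 1.26 (1.23 to 1.28). Crtap, a subunit of the prolyl 3-hydroxylation complex, and the prolyl isomerase gene Fkbp10 were lower with TSA + phenamil than with TSA, at 0.820 (0.771 to 0.872) and 0.814 (0.772 to 0.857). Sparc, a collagen-binding matrix protein, stood at 0.830 (0.824 to 0.836) in senescent against young control and was higher with TSA than without at 1.0997 (1.09 to 1.11), where 6 of the 7 members were lower.

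Of 10 genes of procollagen cleavage and crosslinking, 3 were higher and 3 lower in senescent against young control, and 5 were higher and 2 lower with TSA + phenamil against TSA. Adamts2, the protease that removes the amino propeptide of fibrillar procollagens, had 185 counts in young and 84 in senescent control cells, 88 with TSA and 202 with TSA + phenamil. The young and TSA + phenamil libraries were high, with a ratio of 0.457 (0.349 to 0.595) for senescent against young control and 2.17 (1.68 to 2.82) for TSA + phenamil against TSA. Bmp1, which removes the carboxy propeptide, was lower with TSA than without at 0.729 (0.619 to 0.859) and higher with both compounds than with TSA at 1.64 (1.40 to 1.93). The crosslinking gene Lox went the other way: it was higher in senescent than in young control at 1.24 (1.22 to 1.27) and lower with TSA + phenamil than with TSA at 0.711 (0.697 to 0.726).

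Of 11 genes of fibril-binding proteins, 6 were higher and 4 lower in senescent against young control and again 6 and 4 in TSA + phenamil against TSA. In the latter pair the dermal matrix gene Dpt was at 2.997 (2.33 to 3.90) and periostin (Postn) at 1.79 (1.66 to 1.94), while fibronectin (Fn1), on which fibrils assemble, was at 0.828 (0.818 to 0.838). Of 28 regulators of collagen transcription and collagen mRNA, 5 were higher and 9 lower in senescent against young control, 5 and 8 in TSA against senescent control, 9 and 4 in TSA + phenamil against senescent control, and 13 and 4 in TSA + phenamil against TSA. The 5 higher in the first 2 of these comparisons are near the share of all genes. Smad3, which carries the TGF-beta signal to collagen promoters, was at 0.691 (0.584 to 0.816) in senescent against young control. The ligand gene Tgfb2 was at 0.727 (0.710 to 0.744) with TSA against senescent control and at 1.42 (1.39 to 1.46) with TSA + phenamil against TSA. Tgfb3 had the same directions, at 0.795 (0.761 to 0.831) and 1.36 (1.301 to 1.42). Tgfb1, another ligand of the same receptors, had the opposite ones, at 1.43 (1.19 to 1.71) and 0.727 (0.606 to 0.871). Nfya, a subunit of the factor that binds CCAAT, had 69 counts in the senescent control and 106 with TSA + phenamil, a ratio of 1.61 (1.18 to 2.21). Values of Nfyb and Nfyc, also in the list, are not given here, and the level of the factor was not measured.

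Of 8 collagen receptor genes, 7 were lower and none higher in both TSA against senescent control and TSA + phenamil against senescent control, 2 comparisons that share a library and in which 14.7% and 15.9% of all genes were lower. The integrin subunit gene Itgb1 was at 0.825 (0.806 to 0.844) in the first. The shared-library caution holds also for the 10 genes of collagen degradation, of which 4 were lower and none higher with TSA, and 4 lower and 1 higher with both compounds, each against the senescent control. The inhibitor gene Timp1 was at 0.938 (0.914 to 0.963) and 0.825 (0.803 to 0.847) in these.

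**Figure D4:**
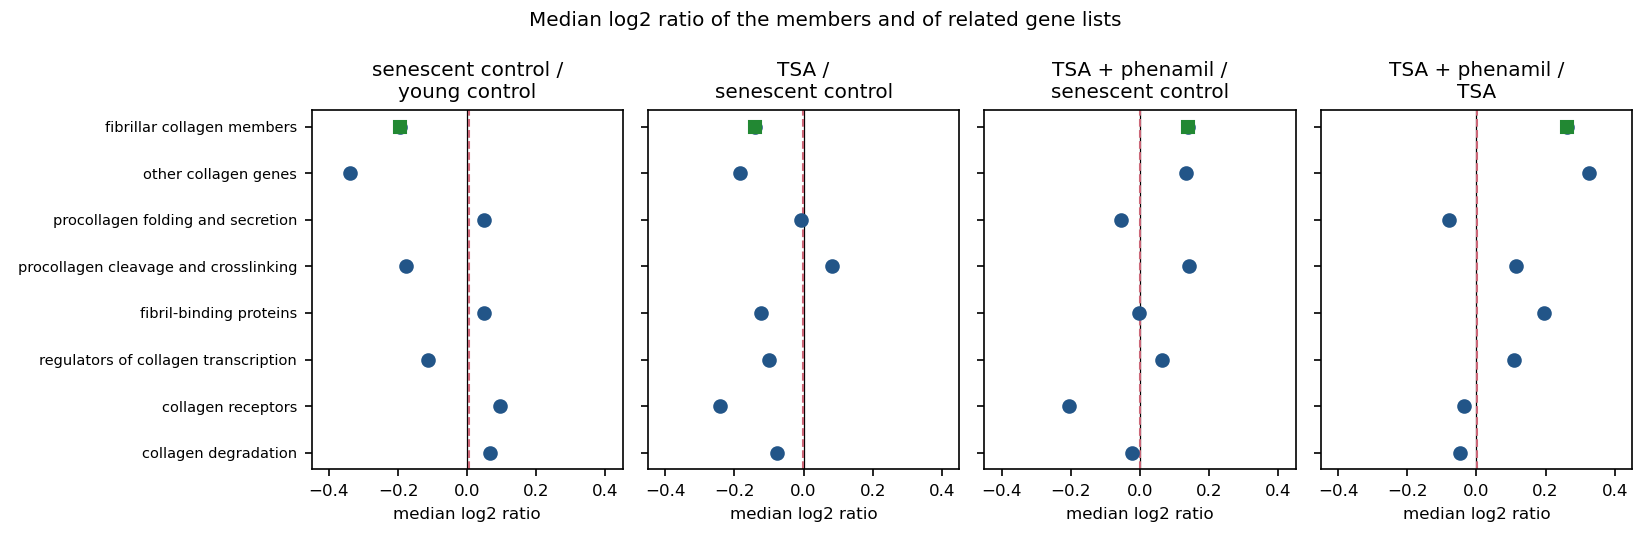
Median log2 ratio (horizontal axis) of the 7 genes (green square) and of 7 lists of related genes (blue points) in 4 comparisons; the dashed line is the median of all genes compared. The members and the other collagens lie on the same side of 0 in each panel, with members at -0.19, -0.14, 0.14 and 0.26, whereas the folding and secretion list stays within 0.08 of 0.

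The genes with the profile most like the mean of the 7 members were sought among 5263 others with at least 1000 counts, by the Euclidean distance between log2 levels centred over the 4 libraries. They were Zmynd11 at a distance of 0.026, Sort1 at 0.035, C1galt1 at 0.036, Atxn1l at 0.036, Klhl24 at 0.038 and Pawr at 0.039. No member was as close to the mean profile: Col1a2 was nearest at 0.083 and Col5a3 farthest at 0.69. The gene nearest to Col1a2 was the crosslinking enzyme gene Loxl2 (distance 0.017), with 1059 CPM in young and 919 CPM in senescent control cells, 842 CPM with TSA and 1002 CPM with TSA + phenamil. Its next nearest was Marveld1 (0.0197). The nearest to Col1a1 were Serpinf1, which encodes a secreted factor (0.022), and Cited2 (0.024), and those to Col3a1 were Selenon (0.070) and Sox4 (0.088). Nearest to Col5a3 was the smooth muscle myosin gene Myh11 (0.048), at 52.7, 30.5, 20.9 and 47.6 CPM in the same order of libraries, and then Etl4 (0.091). Nearest to Col5a1 were Bms1 (0.0054) and Klf2 (0.0095), to Col5a2 Cetn2 (0.014) and Atp2a2 (0.019), and to Col11a1 Cbl (0.030) and Anp32a (0.035). Likeness over 4 libraries is a description only.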

How the data were processed

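Gene expression was measured in 4 libraries, 1 per condition. Per the labels' protocols, TRIzol RNA went into the forward QuantSeq kit for 3' ends and was read from one end over 100 bp on an Illumina NextSeq. The submitters' processing notes name STAR 2.7.10b, HTSeq 2.0.2 and mRatBN7.2 without their roles. The annotation, the strand setting and any removal of duplicates: not given in the sources used here. The authors deposited raw counts per gene, per the file headers, and log2 normalized values, which were checked: adding 1 to the count over a factor of its library and taking log2 returned them within 0.00053.

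Counts were scaled by TMM with edgeR 4.0.16 in R 4.3.3; its quasi-likelihood test needs replicates and was not run. Ratios with exact conditional binomial (Clopper-Pearson) intervals were computed with scipy 1.17.1 in Python 3.11.15; log2 ratios used a prior count of 0.5. A count of 0 was taken to allow 3 counts. The functions were tested on simulated counts. Also tried were total counts, size factors of DESeq2 1.42.0, a TMM without 149 collagen, mitochondrial and ribosomal protein genes, filters of no minimum and of 200 counts, interval rules of 1.2-fold and 1.5-fold, an assumed coefficient of variation of 0.1, and the deposited log2 values.

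The members and gene lists were chosen with earlier results of these data known; the set of genes with 10000 counts was chosen after the files were seen. Names were drawn from all members, up to 3 genes per list, direction and comparison ranked by whichever bound of the interval lies closer to a ratio of 1, and the 6 nearest genes to the mean profile and 2 nearest to each member. Coordinates and promoters come from RefSeq, GRCr8, another build than that of the counts. Protein sequences were not used here.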

Additional observations from a re-analysis of the deposited data

How the results depend on the processing

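No paired analysis was possible because each condition has 1 library, and for the same reason no library could be left out of a condition. Under DESeq2 size factors, the reduced TMM and no filter, all counts of called members stayed within 1.5 times their value. Total counts left 0 members higher in senescent against young control and 2 lower in TSA + phenamil against senescent control. Total counts also turned Col5a2 in TSA + phenamil against young control to a ratio of 0.991 (1.03 with TMM). That scaling shifts every log2 ratio of this pair by -0.054. Over all 6 comparisons, total counts moved 23 member ratios outside their interval under TMM and reversed 1, while 18 stayed inside it. The filter of 200 counts left 0 lower in TSA + phenamil against TSA. In the order of comparisons senescent against young control, TSA against senescent control, TSA + phenamil against senescent control, TSA + phenamil against TSA, TSA against young and TSA + phenamil against young, members lower numbered 2, 1, 0, 0, 4 and 1 beyond 1.2-fold, 1, 0, 0, 0, 1 and 0 beyond 1.5-fold, 1, 1, 0, 0, 2 and 1 when a coefficient of variation of 0.1 was assumed, and 2, 1, 0, 0, 4 and 1 with deposited log2 values beyond 1.2-fold. Members higher numbered 0, 0, 2, 3, 0 and 0 beyond 1.2-fold, 0, 0, 0, 2, 0 and 0 beyond 1.5-fold, and 0, 0, 2, 2, 0 and 0 with the assumed variation; the deposited log2 values gave 0, 0, 2, 4, 0 and 0. These rules are stricter by construction. The assumed variation also allows for differences between libraries that the main intervals leave out. Under it, members lower in senescent against young control fell from 6 to 1, and members higher in TSA + phenamil against TSA from 6 to 2. Shares of abundant genes beyond 1.2-fold and 1.5-fold are given above with each comparison in which a member was called. None was computed for the assumed variation or the deposited values, so those counts describe the members alone. Of the 6 nearest genes to the mean profile, 3 were shared when genes with 400 counts were searched. Variation between cultures was not measured, and counts limit Col5a3 most.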
